A study of Homo sapiens with 36 samples.

Results

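A set of 196 genes was described in A549 cells. They were chosen for a lower level during chronic exposure to IL-1β and a smaller difference from untreated cells after its withdrawal. Once 11 libraries were left out, the median difference was still smaller after withdrawal than during exposure. However, 109 of the 196 genes then no longer met the limit set on the difference after withdrawal. A549 is an established human lung adenocarcinoma line of epithelial origin, and IL-1β is a cytokine of inflammation that drives these cells through epithelial-to-mesenchymal transition (EMT). RNA was sequenced from cells grown with 1 ng/ml IL-1β for 6, 15 or 21 days, from cells grown for 6, 15 or 30 days without it after the 21 days of exposure (posttreatment), and from untreated cells collected beside each of these 6 time points. The 12 groups had 3 biological replicates each, which gave 36 libraries, all from this 1 line. The design addresses which changes of chronic exposure are kept after the cytokine is gone and which are not.

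The members were chosen by measured values. Counts of each library were scaled to a fixed total over genes (CPM), and the mean of log2(CPM + 0.5) in the control libraries was subtracted from that in the IL-1β libraries at each time point. Of 63677 genes listed, 15384 had a mean of at least 1 CPM, and 364 of these had a difference of -1 or lower at both day 15 and day 21 of exposure. The 196 members are those among the 364 whose difference was above -0.5 at both day 15 and day 30 posttreatment. A further 48 of the 364 were still at -1 or lower at both of these times, and 120 were in neither set. The values at the 4 time points whose differences the rule used are therefore given as descriptions without a test. Only day 6 of exposure, day 6 posttreatment and the untreated cells were tested. Their libraries entered the rule through the mean CPM alone, which was taken over all 36 libraries. Members just inside and genes just outside the limits differed little. LHX2 lay at -1.0001 at day 15 beside LGR4 at -0.99 outside the set, SYT7 at -1.0003 at day 21 beside MACROD1 at -0.9989, TMEM151A at -0.49 at day 15 posttreatment beside LINC01270 at -0.50, and SFRP4 at -0.50 at day 30 posttreatment beside PRODH at -0.51.

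In 11 libraries, 11.8% to 24.6% of the counts on genes fell on mitochondrial genes, against 5.61% to 7.75% in the other 25, and these libraries bear directly on the members. Of the 11, 6 were control libraries, namely 1 collected on the sixth day of exposure and 5 after withdrawal (2 at day 6, 2 at day 15, 1 at day 30). The other 5 were IL-1β libraries, 1 at every time point except the earliest. With each gene set to a mean of 0 over the 36 libraries, the median member lay between 0.46 and 1.10 in the 12 control libraries of low mitochondrial share and between -0.79 and 0.29 in the 6 of high share, so that these controls did not overlap. Members were also richer in G and C than other genes. Their longest annotated transcript had a median GC content of 57.3% over the 193 members with a value, against 47.5% over 15020 genes with a mean of at least 1 CPM. Across those genes, the difference between the high and the low control libraries correlated with GC content at a Spearman rho of -0.25 at day 6 of exposure, -0.56 at day 15 posttreatment and -0.69 at day 30 posttreatment. Genes are not independent, and the first and last of these values rest on 1 high control library and the other on 2. The part of library quality in the choice of members was not tested, and values without the 11 libraries are given beside the main counts.

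**Figure D1:**
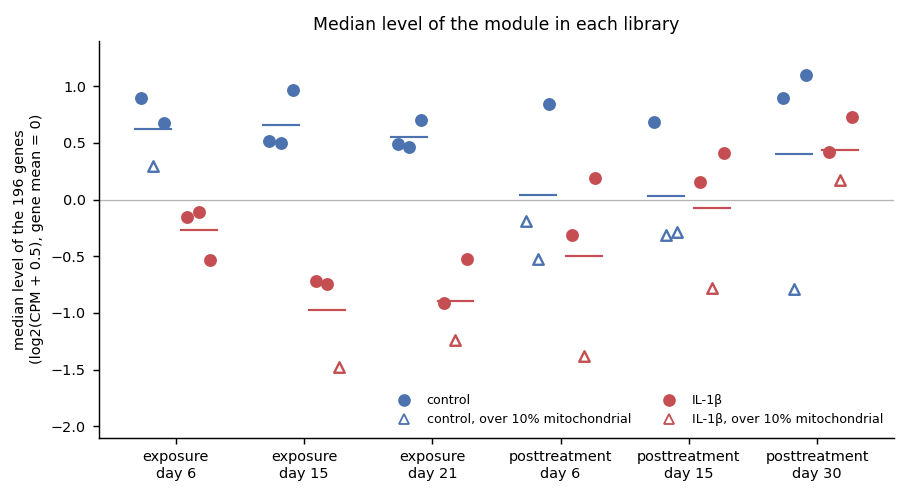
Median level of the 196 genes in each of the 36 libraries, on the log2(CPM + 0.5) scale with each gene's mean over all libraries set to 0, by time point (horizontal axis). Filled circles are libraries of low mitochondrial share, open triangles the 11 of high share, and short lines the means of the 3 libraries of a group. The 6 control triangles lie between -0.79 and 0.29, below every filled control circle. The median over all genes with a mean of at least 1 CPM, not drawn, also separates them, at -0.39 to -0.18 against 0.07 to 0.12.

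Without the 11 libraries, the same rule chose 60 genes, and 52 of the 196 members were among them. The other 144 members failed at least 1 limit in the 25 libraries. In these libraries 59 members were above -1 at day 15 or day 21 of exposure, 69 were at -0.5 or lower at day 15 posttreatment and 80 at day 30 posttreatment, while 100 members lay below 0 at day 30 posttreatment in all libraries and 176 in the 25. A single control library of low share is left at both day 6 and day 15 posttreatment. In the low-share libraries 109 of the 196 members were thus at -0.5 or lower at day 15 or day 30 posttreatment. A full return to the untreated level was not seen for these, and the 196 genes are called here the repressed genes above the return limit. The cells carried the epithelial keratins KRT8 and KRT18 and CDH1 (E-cadherin) at a median of 1978, 1053 and 176 CPM over the 36 libraries, whereas EPCAM did not exceed 1.43 CPM and KRT19 0.209 CPM. Markers of leukocytes, endothelial and erythroid cells stayed at or under 0.555 CPM, and of the fibroblast markers COL1A1 reached 3.70 CPM and the other 3 at most 0.499 CPM.

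EMT is a programme in which epithelial cells give up their apical-basal polarity, cell-cell contacts and keratins and take on mesenchymal features. Repressors of the SNAIL family, SLUG among them, are known to bind the E-box CACCTG in promoters of epithelial genes. In A549 cells, which carry a lesion of the KEAP1-NRF2 system, aldo-keto reductases and aldehyde dehydrogenase are characteristically abundant. The members held 144 protein-coding genes, 13 long noncoding RNAs and 36 pseudogenes, and 3 genes were absent from the annotation used for names.

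Of the 196 members, 106 had a RefSeq promoter of 250 bases before the start (GRCh38.p14). The E-box CACCTG, searched on both strands as CACCTG or CAGGTG with overlap of other motifs allowed, was in 28 of the 106 (26.4%), in 6 of 37 (16.2%) promoters of the 48 genes still low, in 15.6% of 10208 promoters of genes with a mean of at least 1 CPM and in 17.5% of all 27305. The median GC content of these promoters was 70.4%, 56.8%, 65.2% and 58.0% in the same order, and whether base composition sets the share was not tested. The AP-1 motif TGANTCA was in 2.83% of the members' promoters and 3.83% of those of genes with a mean of at least 1 CPM, and the GC box GGGCGG in 68.9% and 67.6%. A match describes the letters only and is not a binding site. Promoters of 4 members that hold the E-box are printed with it in capitals, for an epithelial transcription factor, a receptor and 2 other members.
C1orf116, minus strand, chr1:207032757-207033006: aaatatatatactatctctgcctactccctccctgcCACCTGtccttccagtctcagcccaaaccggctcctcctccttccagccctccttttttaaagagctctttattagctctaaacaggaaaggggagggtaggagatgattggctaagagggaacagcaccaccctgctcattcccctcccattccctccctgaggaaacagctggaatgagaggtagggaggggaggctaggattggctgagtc
S100P, plus strand, chr4:6693628-6693877: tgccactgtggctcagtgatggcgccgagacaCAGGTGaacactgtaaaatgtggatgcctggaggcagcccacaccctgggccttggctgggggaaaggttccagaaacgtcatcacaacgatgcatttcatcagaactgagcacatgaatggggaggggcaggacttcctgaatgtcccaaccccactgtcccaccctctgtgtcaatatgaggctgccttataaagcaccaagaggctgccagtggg
FGFR4, plus strand, chr5:177086665-177086914: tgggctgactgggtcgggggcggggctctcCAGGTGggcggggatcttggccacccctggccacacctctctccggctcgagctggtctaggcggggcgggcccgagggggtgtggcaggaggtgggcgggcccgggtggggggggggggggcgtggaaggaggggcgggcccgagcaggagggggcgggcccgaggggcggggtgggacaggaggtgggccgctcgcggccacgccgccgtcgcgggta
ELF3, plus strand, chr1:202010337-202010586: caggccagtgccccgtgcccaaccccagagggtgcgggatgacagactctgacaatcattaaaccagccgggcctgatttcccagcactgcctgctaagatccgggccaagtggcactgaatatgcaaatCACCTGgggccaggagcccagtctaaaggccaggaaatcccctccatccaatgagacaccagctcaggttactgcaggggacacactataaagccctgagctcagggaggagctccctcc

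Processed copies of the keratins KRT8 and KRT18, the intermediate filament proteins of simple epithelia, made up 27 of the 36 pseudogene members, 15 of KRT8 and 12 of KRT18. Over their aligned length they were 85.7% to 95.2% identical to the parent mRNA (median 91.5%), but between 0.16% and 18.2% of their 50-base windows (median 2.53%) were identical to it. Their summed counts were 2.89% to 8.78% of the counts of KRT8 and KRT18 in the same library, and whether reads of the parent genes were counted on the copies was not tested. The values of single copies are uncertain for that reason. Without the 11 libraries, 0 of the 27 copies met the rule. The copies' median difference at days 15 and 30 posttreatment was -0.14 and -0.13 in all libraries and -0.68 and -0.76 in the 25. KRT8 and KRT18 themselves were not members. Their differences were -1.92 for each at day 21, -0.54 and -0.59 at day 15 posttreatment, just outside the limit, and -0.49 and -0.33 at day 30 posttreatment. A stretch of 90 bases in a coding exon of KRT18 shows how close a copy can be, with the bases that differ in capitals (GRCh37, each in the direction of the transcript).
KRT18 exon 1, plus strand, chr12:53342961-53343050: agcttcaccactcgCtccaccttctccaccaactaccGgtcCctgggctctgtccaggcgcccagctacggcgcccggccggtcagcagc
KRT18P11, plus strand, chrX:91714669-91714758: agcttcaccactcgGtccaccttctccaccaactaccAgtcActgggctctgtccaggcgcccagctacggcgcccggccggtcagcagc
In this stretch KRT18P11 differed from KRT18 at 3 bases.

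For the median member the difference stood at -0.88, -1.60 and -1.36 through days 6, 15 and 21 with IL-1β, then at -0.62, -0.10 and -0.01 through days 6, 15 and 30 without it. In the 25 low-share libraries it was -1.01, -1.36, -1.19, -0.92, -0.39 and -0.43 in the same order. Of the 196, 156 were nearer 0 at day 21 than at day 15, and the difference at day 6 posttreatment lay above that at day 6 of exposure for 151. Over the 52 members that met the rule in both sets of libraries, the median difference at days 15 and 30 posttreatment was 0.05 and 0.20 in all libraries and -0.21 at both in the 25. By replicate number, the median difference at day 30 posttreatment was -0.45, 0.96 and -0.37 in replicates 1, 2 and 3. Replicate 2 of both groups at day 30 had a high mitochondrial share, and at day 15 posttreatment replicate 3, in which the control only did, gave 0.67 against -0.52 and -0.37 in the others. Above 0 at day 30 posttreatment, PLIN4, a lipid droplet protein, lay at 1.97, MEGF6 at 1.27 and SAMD11 at 1.10, which were chosen after their values were seen.

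**Figure D2:**
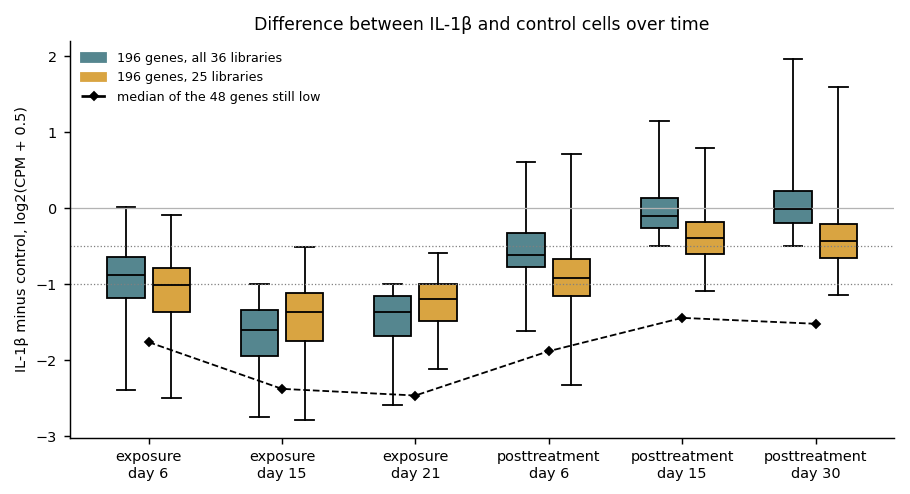
Difference between IL-1β and control cells on the log2(CPM + 0.5) scale at the 6 time points. Boxes give the quartiles and median of the 196 genes and whiskers their range, in all 36 libraries and in the 25 of low mitochondrial share; the dashed line is the median of the 48 genes still low, and dotted lines mark -1 and -0.5. At day 30 posttreatment the median of the 196 genes is -0.01 in all libraries and -0.43 in the 25.

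The rule used the libraries of day 6 of exposure for the mean CPM only and not for a difference. At that time 43 of the 196 members were lower by edgeR at an adjusted p under 0.05 and a fold change over 2. This compares with 1.25% of all 19180 genes tested, and 0 members were higher. At an unadjusted p under 0.05 there were 131. The 43 were led by the noncoding RNAs LINC02532 and H19, by C1orf116, by keratin copies and by SFRP4, a secreted antagonist of Wnt signalling, and they held AKR1B10, AKR1C2, ALDH1A1, CYP4F3 and CYP4F12 among the metabolic enzymes. The fitted log2 fold change was below 0 for all 196, with a median of -1.04 and quartiles of -1.41 and -0.78, beside a median of -0.02 over all genes. In 154 of the 196, every IL-1β library lay under every control library, which was so for 11.2% of all genes. The count was 93 without the 11 libraries (1.50% of the genes tested there) and 127 with high mitochondrial share as a covariate, 77 in a fit of the 6 libraries alone, and 25 with total counts as the scaling. Without replicate 1 it was 13, and without replicates 2 and 3 it was 45 and 31.

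Among aldo-keto reductases, which reduce carbonyls, retinal and steroids, 6 of the 11 tested genes were members, and 2 of the 11 were lower and 1, AKR1B1, was higher at day 6, against 4 lower, all of them members, without the 11 libraries. AKR1B10 (chr7:134212319-134226164, plus strand, GRCh37 here and for the genes that follow) stood at 1553, 1425 and 1707 CPM in the 3 control libraries and at 591, 624 and 777 CPM with IL-1β, without overlap (CPM scaled by TMM, here and below). Its log2 fold change was -1.23 ± 0.17 (SE, n = 3 per group, adjusted p = 1.34e-05). Its group means then lay at 484 ± 147 and 410 ± 27.9 CPM (SD, n = 3) at days 15 and 21, at 838 ± 103, 1051 ± 190 and 1205 ± 64.5 CPM posttreatment, and at 1385 ± 11.4 CPM in the last control.
AKR1C2 had 1783, 1575 and 1566 CPM in control and 844, 873 and 632 CPM in IL-1β libraries at day 6, a log2 fold change of -1.07 ± 0.25 (SE, adjusted p = 0.00948). AKR1C2 lost this call without replicate 1 (adjusted p = 0.437), and without replicate 3 its log2 fold change was -0.95. AKR1C1, AKR1C3, AKR1C4 and AKR1B15 had log2 fold changes from -0.93 to -0.75 at day 6 and did not pass both thresholds. The AKR1C genes are close relatives, so that counts may be split between them, and how the counting treated such reads is not given in the sources used here.

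ALDH1A1 (chr9:75515587-75695358, minus strand), the aldehyde dehydrogenase that makes retinoic acid, was named after its values were seen, as the member with the most counts. It stood at 5986, 5746 and 6087 CPM in control and at 2509, 2514 and 2390 CPM in IL-1β libraries at day 6 (log2 fold change -1.27 ± 0.17, adjusted p = 9.54e-06). At day 30 posttreatment its control libraries were at 5123, 7554 and 6384 CPM and its IL-1β libraries at 3785, 4140 and 4864 CPM, which still did not overlap although the rule counts the gene above the return limit.

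Of the CYP4F enzymes, which hydroxylate fatty acids and leukotrienes, 3 of 5 tested genes were members and 2 were lower at day 6. CYP4F3 (chr19:15751707-15773635, plus strand) had 33.8, 31.1 and 36.99 CPM in control and 9.25, 11.8 and 11.8 CPM in IL-1β libraries, a log2 fold change of -1.63 ± 0.20 (adjusted p = 2.56e-06). CYP4F12 had 4.71, 3.65 and 2.07 CPM against 1.38, 1.10 and 0.682 CPM, and its log2 fold change of -1.73 ± 0.45 (adjusted p = 0.0189) lost the call without replicates 1 or 2 (adjusted p = 0.425 and 0.179). Both were at low levels throughout exposure, with group means of 7.50 ± 0.98 CPM for CYP4F3 and 0.339 ± 0.204 CPM for CYP4F12 at day 21.

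LINC02532 (chr6:107153203-107236023, minus strand), a noncoding RNA, had 43, 35 and 59 counts in the control and 1, 4 and 3 counts in the IL-1β libraries at day 6. The summed counts scaled by depth gave a ratio of 0.0554 (95% exact interval 0.0234 to 0.112, which covers counting error only), and the fitted log2 fold change, -4.18 ± 0.43 (adjusted p = 1.34e-07), depends on the prior count. H19, the imprinted noncoding RNA of 11p15, had 43, 33 and 30 counts against 2, 2 and 8, a ratio of 0.107 (0.0538 to 0.196) and a fitted log2 fold change of -3.32 ± 0.47 (adjusted p = 2.29e-05). CDKN1C, the cell cycle inhibitor p57 of the same imprinted region, had 28, 8 and 28 counts against 10, 2 and 5, and its log2 fold change of -1.98 ± 0.48 (adjusted p = 0.0106) did not pass without replicate 1 or replicate 3 (adjusted p = 0.105 and 0.211). Of 9 tested genes of 11p15 these 2 were lower, and none was higher. All 3 genes met the rule without the 11 libraries.

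Receptors and kinases were lower in part. GFRA1, the co-receptor for GDNF, had 37.3, 35.6 and 27.8 CPM in control and 15.0, 15.8 and 11.4 CPM in IL-1β libraries at day 6 (log2 fold change -1.25 ± 0.17, adjusted p = 1.10e-05). Of the 14 tested growth factor receptors and adaptors, 4 were members and 2 were lower at day 6, GFRA1 and the non-member ERBB3, against 5 without the 11 libraries, among them all 4 members. FGFR4, a fibroblast growth factor receptor, had 24.3, 12.8 and 30.2 CPM in control and 6.62, 7.02 and 9.01 CPM with IL-1β, where the lowest control is the library of high mitochondrial share. Its log2 fold change of -1.57 ± 0.60 (adjusted p = 0.196) was -1.82 without the 11 libraries (adjusted p = 1.04e-07).
DAPK1 (chr9:90112143-90323549, plus strand), a kinase of cell death, had 219, 176 and 193 CPM against 79.5, 80.8 and 61.7 CPM (log2 fold change -1.40 ± 0.19, adjusted p = 1.16e-05). Of the 19 tested stress and survival kinases, 3 were lower, DAPK1, SGK2 and MAP2K6, all of them members, and 2 were higher. MAP2K6 lost its call without replicate 1 or replicate 2 (adjusted p = 0.36 and 0.0576). SGK2, a kinase related to the serum and glucocorticoid-induced kinase, had 10.1, 9.83 and 9.93 CPM against 3.52, 3.14 and 5.80 CPM (log2 fold change -1.25 ± 0.23, adjusted p = 0.000761), a call that was lost without replicate 1 (adjusted p = 0.158). MAP3K21, a mixed-lineage kinase, had 46.7, 47.2 and 62.1 CPM against 20.7, 20.6 and 25.5 CPM (log2 fold change -1.22 ± 0.13, adjusted p = 3.52e-07).

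C1orf116 and the nuclear receptor NR5A2 were among the clearest of the remaining protein-coding members. C1orf116 (chr1:207191867-207206101, minus strand) had 5.88, 6.52 and 3.01 CPM in control and 0.897, 1.10 and 0.438 CPM with IL-1β (log2 fold change -2.69 ± 0.34, adjusted p = 3.01e-06). NR5A2, a regulator of liver and pancreas genes, had 7.52, 10.4 and 10.1 CPM against 2.41, 3.00 and 3.51 CPM (log2 fold change -1.64 ± 0.24, adjusted p = 2.42e-05). NR5A2 was on a list of hepatocyte-type transcription factors and secreted proteins, of which 8 genes were tested and 2, AMBP and NR5A2, were members. At day 6, 5 of the 8 were lower by edgeR and 1, SERPINA1, was higher (log2 fold change 3.125, adjusted p = 0.000318). HNF4A and ONECUT1, liver transcription factors, were among the 5 and were not members. HNF4A was among the 48 genes still low, and ONECUT1 was under the CPM limit of the rule.

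The count of members lower at day 6 among the genes of epithelial polarity depended on the libraries used. Of 22 tested genes of cell polarity, plakins and hemidesmosomes, 8 were members, and by edgeR 0 of these 8 passed both thresholds in all libraries and 3 did without the 11, LLGL2, CELSR2 and CRB3, while in all libraries of the non-members 1 gene, DSP, was lower and 2 were higher. LLGL2, a basolateral polarity protein, had 92.4, 59.0 and 56.1 CPM in control and 36.9, 35.0 and 15.4 CPM in IL-1β libraries, a log2 fold change of -1.25 ± 0.56 (adjusted p = 0.347) that became -1.34 (adjusted p = 0.0186) without the 11 libraries. PLEKHA6 and PPL, a junction-associated protein and a plakin, had log2 fold changes of -0.98 and -1.08 (adjusted p = 0.0506 and 0.0551). In the 25 libraries CELSR2 and CRB3 had log2 fold changes of -1.42 and -1.33 (adjusted p = 0.000551 and 0.00432), and CELSR1, LSR and PLEKHA6 were under an adjusted p of 0.05 short of the fold threshold. Of the epithelial transcription factors SPDEF and ELF3 were members, and 0 of 5 tested genes on that list passed, against 1, SPDEF, without the 11 libraries. Of 15 Notch genes, in which NOTCH3, JAG2 and NRARP were members, 0 passed by edgeR at day 6 or day 6 posttreatment, while NOTCH3 and JAG2 passed at day 6 and NOTCH3 at day 6 posttreatment without the 11 libraries. NOTCH3 had 239, 135 and 140 CPM in control and 92.4, 71.9 and 36.7 CPM with IL-1β, without overlap, at an adjusted p of 0.354. In the 25 libraries its log2 fold change was -1.48 at day 6 (adjusted p = 0.00221) and -1.47 at day 6 posttreatment (adjusted p = 0.0415).
The IFITM list (2 members of 3 tested), the equilibrative nucleoside transporters (2 of 4) and the S100 proteins (1 of 9, S100P) also had 0 genes past both thresholds at day 6, and telomerase and shelterin genes (11 tested) held no member. In the 25 libraries the nucleoside transporter SLC29A4 passed at day 6 (-1.05, adjusted p = 0.0105), SLC29A2 had -0.83 (adjusted p = 0.00468), and the IFITM and S100 lists still had 0 genes past both thresholds. In all libraries the median log2 fold changes of the tested genes on the IFITM, nucleoside transporter, S100 and telomerase lists were -1.33, -0.41, 0.08 and -0.04 at day 6. On the keratin pseudogene list, 22 of 55 tested copies were lower at day 6, with a median of -1.76, and 8 of these 22 were members, against 43 and 27 without the 11 libraries. KRT8P37, with 33.1, 33.1 and 39.9 CPM against 7.52, 8.19 and 7.99 CPM, had a log2 fold change of -2.16 ± 0.36 (adjusted p = 0.000169), which missed the threshold without replicate 1 (adjusted p = 0.0606).

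**Figure D3:**
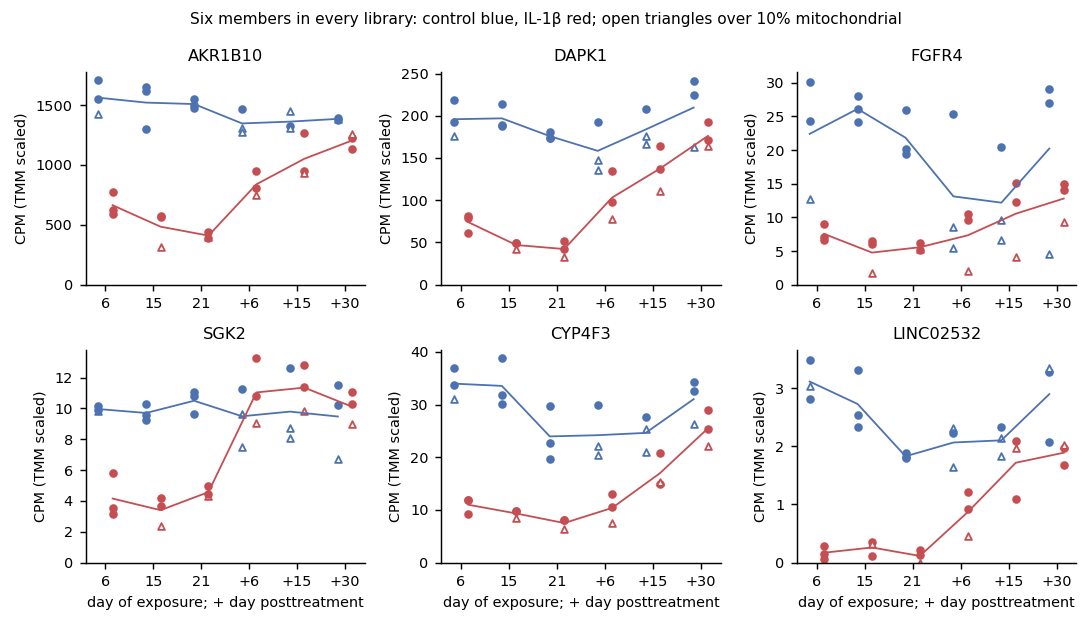
Level of 6 members in each library, in CPM scaled by TMM (vertical axes start at 0), by day of exposure and, with a plus sign, day posttreatment. Points are libraries, open triangles those of high mitochondrial share, and lines join group means. The group means of SGK2 are 11.04 CPM after IL-1β and 9.49 CPM in control at day 6 posttreatment, and the 3 control values of FGFR4 at day 30 posttreatment run from 4.63 to 29.1 CPM with the lowest in the library of high share.

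Among the deepest differences at days 15 and 21, which the rule used, were those of NOTCH3, UPK3B, FGFR4, TMEM151A, C1orf116 and 6 keratin copies. NOTCH3, a Notch receptor, lay at -2.62 and -2.17. At day 30 posttreatment its control libraries had 237, 43.2 and 209 CPM and its IL-1β libraries 115.8, 81.9 and 118 CPM, and its difference was -0.19 in all libraries and -0.92 without the 11. Of the 12 genes with the deepest mean difference, C1orf116 alone met the rule without the 11 libraries.

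At day 6 posttreatment, 9 of the 196 members were still lower by edgeR at both thresholds, against 0.725% of all 19180 genes, and 0 were higher. They were BCL11B, RAPGEF5, AKR1C2, AKR1C3, CYP4F3, MAP3K21, RAB11FIP4 and the keratin copies KRT8P37 and KRT8P41, and 6 of them had also passed at day 6 of exposure. The fitted log2 fold change was below 0 for 185 of the 196, with a median of -0.74 beside -0.001 over all genes, and every IL-1β library lay under every control library for 45 members, which was so for 5.24% of all genes. Without the 11 libraries, of which 2 are control libraries of this time point, 47 members were lower (0.978% of the genes tested there) and the median was -0.96. A fit of the 6 libraries alone called 0 members, with 50 at an unadjusted p under 0.05, and so did the fit without replicate 1, with 34, whereas DESeq2 called 10. None of the 52 members that met the rule without the 11 libraries was among the 9. Over these 52 the median log2 fold change was still below 0, at -0.62 in all libraries. Without the 11 libraries, which leaves 1 control library at this time, it was -0.78.

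BCL11B, a zinc finger transcription factor, had 4.26, 4.32 and 3.61 CPM in control and 1.31, 1.62 and 1.16 CPM in formerly exposed cells (log2 fold change -1.58 ± 0.24, adjusted p = 0.00017). MAP3K21 had 46.2, 59.4 and 51.2 CPM against 24.96, 27.7 and 24.9 CPM (-1.02 ± 0.13, adjusted p = 2.56e-05), close to its values with IL-1β. RAPGEF5, an exchange factor for RAP GTPases, had 2.97, 2.85 and 2.62 CPM against 1.15, 1.04 and 0.985 CPM (-1.39 ± 0.27, adjusted p = 0.00202).
AKR1C2 had 872, 819 and 1477 CPM against 370, 272 and 588 CPM (-1.37 ± 0.26, adjusted p = 0.00144). CYP4F3 had 20.5, 22.1 and 29.9 CPM against 10.6, 7.42 and 13.1 CPM (-1.22 ± 0.20, adjusted p = 0.000422). Groups of these 5 genes did not overlap. RAB11FIP4, an effector of endosomal recycling, and AKR1C3 had log2 fold changes of -1.12 and -1.11 (adjusted p = 0.00641 and 0.0067). Each of the 9 lost its call without replicate 1. At this time 2 of the 11 aldo-keto reductases, 1 of the 5 CYP4F enzymes and 9 of the 55 keratin copies tested were lower, and 0 genes of these 3 lists were higher. The counts were 4, 1 and 33 without the 11 libraries. AKR1B10, at 1305, 1271 and 1464 CPM against 810, 753 and 952 CPM, was lower at an adjusted p of 0.019 with a log2 fold change of -0.68, short of the fold threshold. Other lists held higher genes at day 6 posttreatment in all libraries. The hepatocyte-type list had 3 lower and 1 higher, SERPINA1 (2.43). The stress and survival kinases had 0 lower and 1 higher, MAP2K3 (1.31), and the polarity list 0 and 1, LAMB3 (1.71). The growth factor receptors and the simple-epithelium keratins each had 1 lower and 0 higher.

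**Figure D4:**
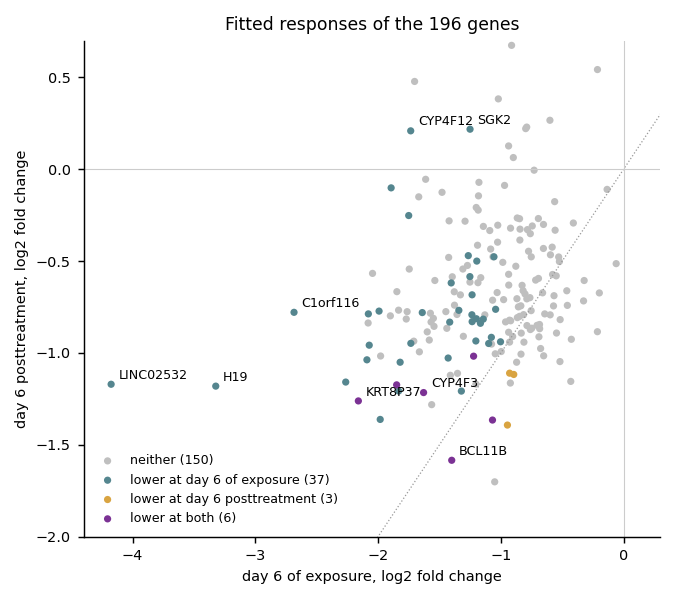
Fitted log2 fold changes of the 196 genes at day 6 of exposure (horizontal) and day 6 posttreatment (vertical), edgeR fit of all 36 libraries. Colours mark genes past both thresholds at 1 or both times (37, 3 and 6 genes; 150 at neither), and the dotted line marks equal values.

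A test of the difference between the responses at both day 6 time points called 2 of the 196 members higher, against 0.0730% of all genes, with 16 at an unadjusted p under 0.05. SGK2 had 9.67, 7.51 and 11.3 CPM in control and 10.8, 9.04 and 13.3 CPM in formerly exposed cells, and its response was higher than at day 6 of exposure by 1.47 ± 0.32 on the log2 scale (adjusted p = 0.0459). LINC02532 had 18, 19 and 52 counts against 17, 4 and 21 counts, a ratio of 0.472 (0.319 to 0.688), and its response was higher by 3.00 ± 0.57 (adjusted p = 0.00947). Both lost the call without replicate 1, without replicate 3 (adjusted p = 0.078 for SGK2 and 0.568 for LINC02532) and in a fit of the 12 libraries of these groups alone (0.436 and 0.123), and SGK2 also without replicate 2 (0.712) and without the 11 libraries (0.0661). Over the 196 members the median of this difference was 0.41, beside 0.02 over all genes. CYP4F12, at 1.81, 1.21 and 2.96 CPM against 1.31, 2.09 and 3.71 CPM, had a log2 fold change of 0.21 ± 0.43 at day 6 posttreatment, which was -0.23 without the 11 libraries.

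Untreated cells were compared between both day 6 collections, since the members' return is read against them. By edgeR 0 of the 196 members changed at both thresholds in either direction, beside 0.00521% of all genes, with 17 at an unadjusted p under 0.05, and DESeq2 called 0 as well, with 19. The median log2 fold change of the members was -0.48 (178 of 196 below 0), beside -0.03 over all genes. Without the 11 libraries, which leaves 1 control library at day 6 posttreatment, the median was -0.05. Without replicate 3, which leaves the 2 controls of high share at that time, 4 members passed, SELENBP1, SMOC1, CYP4F12 and AKR1C1, all of them lower at day 6 posttreatment.

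The members were set beside the 48 genes still at -1 or lower after withdrawal, at both times whose differences the rule did not use. At day 6 of exposure, 76 of the 196 (38.8%) and 41 of the 48 (85.4%) were at -1 or lower by the difference of log2(CPM + 0.5), as were 1.48% of the 15384 genes. At day 6 posttreatment 14 of the 196 and 45 of the 48 were at -1 or lower, as were 0.969% of the 15384, and 74 of the 196 and 0 of the 48 were above -0.5. Without the 11 libraries, 31 of the 196 were above -0.5 at that time. Median differences at day 6 posttreatment were -0.62 and -1.88 in all libraries and -0.92 and -2.35 in the 25. The 48 had also fallen further, with medians of -2.38 and -2.46 at days 15 and 21 against -1.60 and -1.36 for the members. The part of this depth in the counts past fixed limits was not tested. The values are descriptions, as both sets share the libraries and were chosen on other time points of the same series. The GC content of the 48 had a median of 46.9%, lower than that of the members and close to that of all genes.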

How the data were processed

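RNA of 36 libraries of A549 cells was sequenced by the authors after preparation with the KAPA Stranded mRNA-Seq kit. Per the submitters' processing notes, reads were handled with bcl2fastq 2.17, TopHat2 2.0.14, Bowtie2 2.2.5 and HTSeq 0.6.1 on GRCh37. The strand setting of the counting and the annotation release are not given in the sources used here. The deposited values are raw counts per Ensembl gene, made by the authors without normalization, and 9116032 to 23570026 counts per library fell on genes. A further 8.48% to 18.6% were on no gene and 2.62% to 4.18% were ambiguous; these lines were left out.

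Groups and replicate numbers were taken from the labels. Names and positions came from GENCODE v44lift37 (55665 genes matched), promoters from RefSeq (GRCh38.p14). Genes kept by filterByExpr (19180) were scaled by TMM and fitted with edgeR's quasi-likelihood test (edgeR 4.0.16, limma 3.58.1, R 4.3.3) over all 12 groups, with 24 residual degrees of freedom and Benjamini-Hochberg adjustment over the genes tested. DESeq2 1.42.0 was an alternative. The edgeR fit was run on simulated counts with 200 genes changed by 2 on the log2 scale at day 6 of exposure. It recovered 172 of them and made 5 false calls. The simulated counts held no shift in the 11 libraries of high mitochondrial share, so the simulation cannot show how that shift affects the calls. CPM in the text use TMM scaling, the rule uses total gene counts. Keratin copies were aligned with blastn 2.17.0. Tables and plots were made in Python 3.11.15 (pandas 2.3.3, scipy 1.17.1, numpy 2.4.6, matplotlib 3.10.9).

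The members, gene lists and tests were chosen with earlier results of these data known, and the lists were written with the study's table of changed genes in view, so that none is independent evidence. Genes were named by a rule: the 12 lowest at days 15 and 21, the 10 lowest called at day 6, all called at day 6 posttreatment, up to 8 called for a difference between both, members on the lists and the genes nearest the limits. One member on the Y chromosome is counted but not described. Alternatives were other scalings, filters, tests and thresholds, other forms of the rule, the replicate number as a block, and fits that left out each replicate or the 11 libraries rich in mitochondrial counts.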

Additional observations from a re-analysis of the deposited data

Results flagged for a closer look

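For SGK2 and LINC02532 the response to IL-1β differed between day 6 posttreatment and day 6 of exposure by a test of that difference in the fit of all libraries (edgeR quasi-likelihood, adjusted over 19180 genes). The response of SGK2 was higher by 1.47 on the log2 scale (adjusted p = 0.0459), and that of LINC02532 by 3.00 (adjusted p = 0.00947), the latter on 1, 4 and 3 counts in the IL-1β libraries at day 6. Both calls were lost without replicate 1, without replicate 3 and in a fit of the 12 libraries of these groups alone. Groups of 3 libraries are too small to flag a single library by its distance from the others.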

How the results depend on the processing

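Where a value moved, the cause was not tested, except that fits without libraries hold fewer samples. The rule gave 125 genes with a mean CPM of at least 5 and 60 without the 11 libraries rich in mitochondrial counts. Leaving out 1 replicate in turn gave 84 to 242 (242 without replicate 1, 100 without replicate 2 and 84 without replicate 3). TMM scaling in the rule gave 145 and a pseudocount of 1 gave 160.

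Members lower at day 6 of exposure numbered 25 with total gene counts, 77 in a separate fit, 93 without the 11 libraries and 127 with their share as a covariate. They numbered 23, 26 and 19 with members chosen on TMM-scaled CPM, a mean CPM of at least 5 and without the 11 libraries, and 13 to 45 without 1 replicate. Members lower at day 6 posttreatment numbered 4 with total gene counts, 0 in a separate edgeR fit (50 at an unadjusted p under 0.05), 47 without the 11 libraries, 58 with the covariate and 18 at an adjusted p under 0.05 with any fold. With members chosen on TMM-scaled CPM they numbered 0 and without the 11 libraries 1, and leaving out 1 replicate gave 0 to 15. Members with a higher response at day 6 posttreatment numbered 0 in a separate edgeR fit (16 at an unadjusted p under 0.05), 1 each with total gene counts, with no filter, at an adjusted p under 0.01 and with a mean CPM of at least 5 in the rule, and 0 to 1 without 1 replicate. Members changed in untreated cells numbered 0 to 4 without 1 replicate.

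Median responses ranged from -1.24 to -0.89 at day 6 of exposure and from -0.96 to -0.62 posttreatment over 15 alternatives each. CYP4F12 at day 6 posttreatment (0.21) changed sign, to -0.23 without the 11 libraries and -0.011 without replicate 2, and its values without 1 replicate ran from -0.011 to 0.46. Of 24 named genes called at day 6, 11 passed both thresholds in all 11 alternatives of the fit (AKR1B10, ALDH1A1, C1orf116, CYP4F3, DAPK1, GFRA1, H19, LINC02532, MAP3K21, NR5A2 and SFRP4), and the other 13 lost the call without replicate 1. Same-numbered libraries of a time point deviated together in part. The correlation of their deviations was over 0.1 in 14 of 18 pairs but ran from -0.34 to 0.72. The numbers were therefore not treated as pairing the samples, for which every pair was required to be over 0.1. The lowest values, -0.34 and -0.11, came from pairs in which the control alone had a high mitochondrial share. Replicate 1 at day 15 of exposure, with both libraries of low share, had 0.07. The part of library quality in these correlations was not tested. With the replicate block, 50, 11 and 2 members were called in place of 43, 9 and 2, and 0 in untreated cells. P-values measure the spread between replicates of 1 line. The low counts of LINC02532, H19 and CDKN1C limit their fold changes.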
